A study of Macaca mulatta with 24 samples.

Results

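The transcription factors described here are 10 genes that were chosen by name as regulators of the thalamus and of neuron classes, BHLHE22, TCF7L2, LEF1, FOXP2, RORA, RORB, GBX2, LHX2, LMO4 and ZIC1, and the choice was made with the signals of these arrays by layer class already known. The platform annotation gave 18 probe sets with a single one of these symbols, out of 52766 probe sets other than controls. TCF7L2 had 6 of them, FOXP2 5, BHLHE22, LMO4 and RORA 2 each and RORB 1. LEF1, GBX2, LHX2 and ZIC1 were matched to no probe set by this rule and were not analysed here. Since signals by layer class chose the members, the contrast of parvocellular and magnocellular layers is given as a description with no test. The comparisons that were tested use the same arrays, and earlier results of these data were known when the members were chosen.

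The samples came from the lateral geniculate nucleus (LGN), the thalamic relay from the retina to the visual cortex, of 2 infant rhesus macaques (Macaca mulatta) whose left eye was deprived of vision from birth. One animal wore an opaque contact lens for 2 months and the other had its lids closed by tarsorrhaphy for 4 months, so that duration, age, method and animal cannot be told apart. Each of 6 layers of both LGNs of each animal was cut out by laser capture microdissection, pooled over several sections and hybridized to 1 Rhesus Macaque Genome Array, which gave 24 arrays. Layers 1 and 2 are the magnocellular layers, with large neurons, and layers 3 to 6 the parvocellular layers, with small neurons. The deprived eye projects to layers 2, 3 and 5 of the ipsilateral LGN and to layers 1, 4 and 6 of the contralateral LGN. Of the parvocellular arrays 8 were from deprived and 8 from nondeprived layers, and of the magnocellular arrays 4 and 4. The nondeprived layers lay beside deprived layers in the same nuclei, and no array analysed here came from an animal reared normally.

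Transcription factors bind DNA and set which genes a neuron class expresses. During development the thalamus is marked out by a small set of them, among them TCF7L2, the main factor through which Wnt signaling acts on its target genes in thalamic neurons, while GBX2, LEF1, LHX2 and RORA act in the same nuclei as neurons acquire their regional identity. FOXP2 is known from deep cortical layers, striatum and thalamus, RORB from sensory neurons and cortical layer 4, BHLHE22 as a repressor in several neuron classes, and LMO4 as a LIM-only protein that binds to other factors without binding DNA itself.

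A signal is a linear intensity in arbitrary units on arrays that the authors scaled to the same trimmed mean, with 1 value for each probe set. On each array 40.6% to 57.1% of probe sets reached a signal of 100. Of the 18 probe sets of the members, 12 reached 100 on at least 1 array and were tested, together with 37623 probe sets in all, and 6 did not. The untested ones were 1 of 2 probe sets of BHLHE22 (1.50 to 43.1 over the 24 arrays), 1 of 2 of LMO4 (1.82 to 57.0), 3 of 5 of FOXP2 (0.61 to 99.98) and the single probe set of RORB (2.38 to 94.97, median 56.0). RORB, a nuclear receptor related to RORA, therefore has no measured order of layers here. By contrast, the tested probe sets of LMO4, RORA and TCF7L2 were at 100 or more on all 24 arrays and that of BHLHE22 on 21. Levels of different probe sets cannot be set against each other, because each has its own probes. In bulk samples of this kind, fewer cells of a type and less RNA per cell cannot be told apart.

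The relay neuron markers PVALB, GRIK1 and NEFH were present in the captured layers, with summed signals, together with SLC17A7, of 37757 to 71937 in parvocellular and 49971.5 to 97662 in magnocellular arrays, and SLC17A7 was under 100 on every array. The single koniocellular marker with a probe set, CAMK2A, read between 4.08 and 175. One array stood apart, that of layer 2 (deprived) in the ipsilateral LGN of the 2-month animal. Its GAPDH 3'/5' ratio, which rises as RNA is shortened, was 50.8, and on the log2 scale it correlated with the rest at 0.837 on average, where the other arrays had means of 0.882 to 0.908. Layer 2 of the contralateral LGN of the same animal had the next highest ratio, 14.3, and the other 22 arrays had 1.97 to 8.91. Where leaving out either or both of these arrays moved a magnocellular result, a value without them stands beside it. In the deprivation comparison of magnocellular layers alone, each LGN gives a single pair of arrays. There, leaving out the array that stood apart removes its whole nucleus.

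BHLHE22, a basic helix-loop-helix repressor, separated the layer classes in every LGN. In the 16 parvocellular arrays its signal (MmuSTS.1381.1.S1_at) had a lowest value of 301, a median of 1093 and a highest value of 2933. In the 8 magnocellular arrays the lowest was 19.1, the median 208 and the highest 427. The ranges of the classes overlapped only across animals, since the lower parvocellular values came from the animal deprived for 2 months and the higher magnocellular values from the animal deprived for 4 months.

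Within an LGN the order was the same each time. In the ipsilateral LGN at 2 months BHLHE22 read 61.3 and 172 in layers 1 and 2 and 301, 395, 352 and 649 in layers 3 to 6. In the contralateral LGN of that animal it read 72.6 and 19.1 in layers 1 and 2 and 342, 399, 549.9 and 602 in layers 3 to 6. At 4 months the ipsilateral LGN read 243 and 414, then 1538, 1851, 2102 and 2933. Each parvocellular layer lay above both magnocellular layers of its own nucleus. In the contralateral LGN at 4 months the values were 260.1 and 427, then 1849.7, 1857, 2669.7 and 2047. The mean within-LGN difference, parvocellular minus magnocellular, was 2.74 ± 0.68 (SD, n = 4 LGNs) on the log2 scale, with 1.98 in the ipsilateral and 3.63 in the contralateral LGN at 2 months and 2.69 and 2.64 at 4 months. Since 3 of the 4 magnocellular signals at 2 months, 19.1, 61.3 and 72.6, were under 100, the difference was also taken with signals under 100 set to 100, which gave 2.29 ± 0.49, or at least 4.90-fold, and 2.21 in place of 3.63. It was 2.56 with signals under 50 set to 50. With the signals as given, the difference was 2.92 ± 0.47 without the array that stood apart and 2.68 ± 0.04 without both layer 2 arrays at 2 months, so that the LGNs differed most through layer 2 of the younger animal. A parvocellular range wholly above the magnocellular one in all 4 LGNs was found in 0.229% of the probe sets tested (86), and the reverse in 0.162% (61). Among the 12 probe sets of the members, the BHLHE22 probe set was the only one of either kind.

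**Figure D1:**
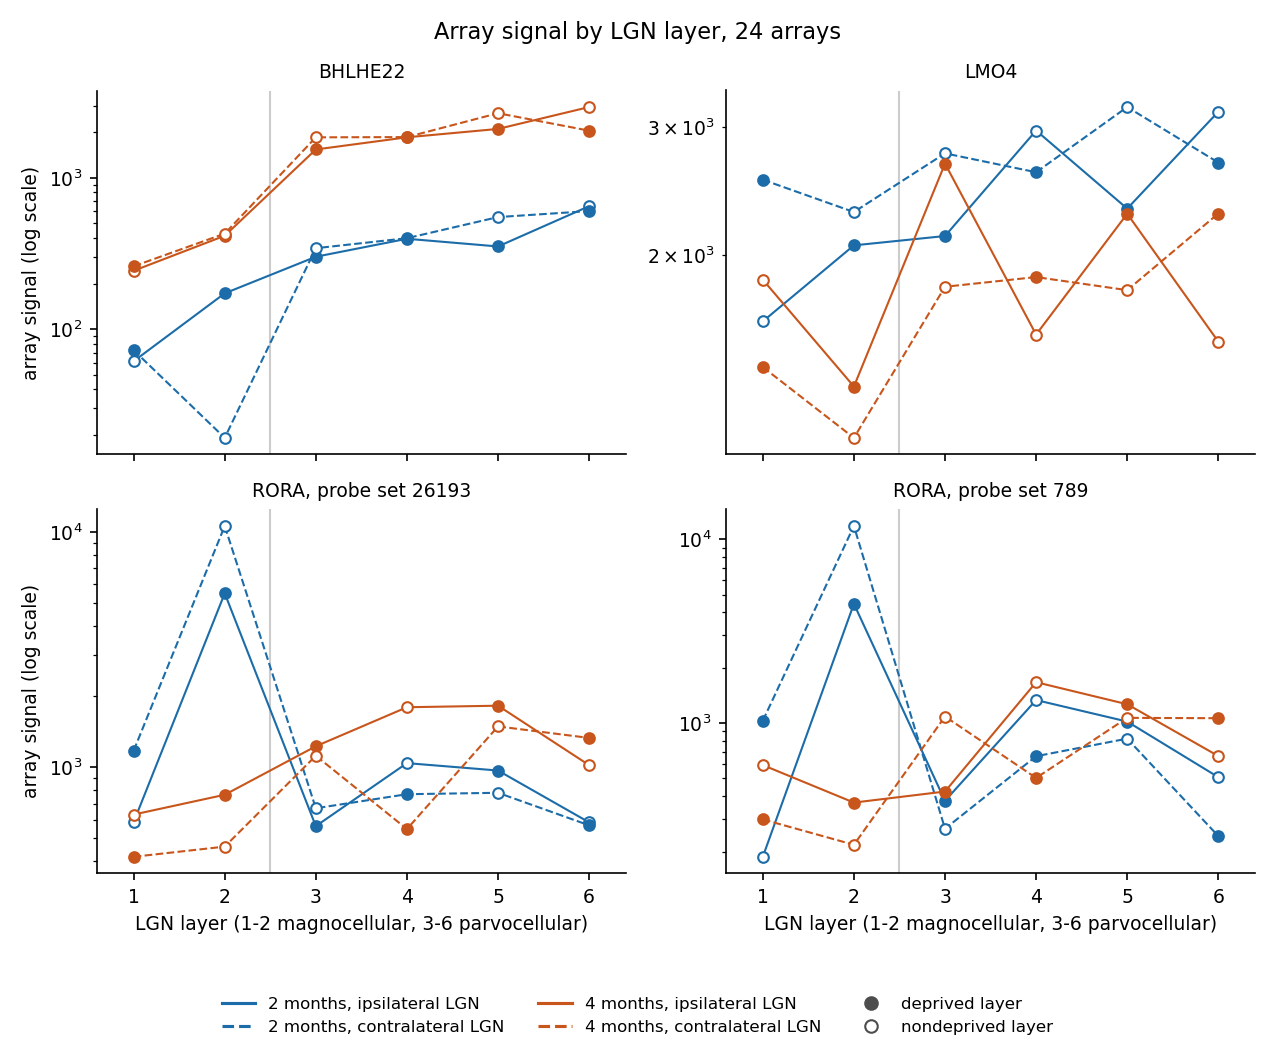
Array signal (log scale, arbitrary units) of BHLHE22, LMO4 and both RORA probe sets against LGN layer, with 1 point for each of 24 arrays, lines joining the layers of an LGN, blue for 2 months, orange for 4 months, filled points for deprived layers, and a vertical line between magnocellular and parvocellular layers. BHLHE22 stepped up between layers 2 and 3 in 4 of 4 LGNs, LMO4 differed less between the classes, and RORA peaked in layer 2 of both LGNs at 2 months, at 5482 and 10586 in probe set 26193.

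Across single layers, the mean of BHLHE22 over the LGNs followed the layer number, although single LGNs departed from it. After subtraction of each LGN's mean, the log2 signal was -1.96 ± 0.33 (SD, n = 4 LGNs) in layer 1, -1.69 ± 1.19 in layer 2, 0.55 ± 0.25 in layer 3, 0.77 ± 0.16 in layer 4, 1.02 ± 0.44 in layer 5 and 1.30 ± 0.32 in layer 6. The step between layers 2 and 3 was 2.24 ± 1.402 and went upward in 4 of 4 LGNs. That between layers 3 and 4 was small, at 0.22 ± 0.16, and also went upward in 4 of 4. The neighbours 1 and 2 (0.26 ± 1.50), 4 and 5 (0.25 ± 0.32) and 5 and 6 (0.28 ± 0.54) did not differ beyond their spread.

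Among parvocellular layers BHLHE22 was higher in the outer layers 5 and 6 than in the inner layers 3 and 4, on average, in 4 of 4 LGNs. The log2 difference was 0.50 (SE 0.12, 95% interval 0.24 to 0.76), with an unadjusted p of 0.000687 and an adjusted p of 0.521 from limma over 16 arrays, so it did not pass. In this comparison 0% of all probe sets passed, and 8.98% (3377) had an unadjusted p under 0.05. The value was 0.55 at 2 months alone, 0.45 at 4 months alone and 0.77 after median scaling (adjusted p = 0.183), which moved the median of all probe sets in this comparison from -0.10 to 0.18. The GAPDH ratio had a median of 4.82 in the outer and 4.87 in the inner layers.

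The same probe set differed strongly between the animals. Parvocellular BHLHE22 signals ran from 301 to 649 at 2 months and from 1538 to 2933 at 4 months, and magnocellular ones from 19.1 to 172 and from 243 to 427. In neither class did the animals overlap, and the mean log2 signal was higher at 4 months by 2.25 in parvocellular layers (4.77-fold). In magnocellular layers it was higher by 2.39 with the signals as given and by 1.50, or at least 2.84-fold, with signals under 100 set to 100. A complete separation with 4 months higher was seen in 2.18% of all probe sets in parvocellular and 4.35% in magnocellular layers, and one with 4 months lower in 1.23% and 7.9%. Of the 12 member probe sets, 2 were separated in this way in parvocellular layers, both higher at 4 months, and 1 in magnocellular layers. Over all probe sets the median difference, 4 minus 2 months, was -0.13 in parvocellular and -0.24 in magnocellular layers. The GAPDH ratio was 4.80 to 7.88 in parvocellular arrays at 2 months and 1.97 to 6.59 at 4 months, and its part in the difference was not tested.

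The 3 genes whose pattern over the 24 arrays was most like that of BHLHE22, after subtraction of each LGN's mean, were ADAM12, ST8SIA4 and FCSK. Their correlations with it were 0.90 each, and 0.89, 0.88 and 0.87 without both layer 2 arrays at 2 months. ADAM12, a membrane-bound protease, read a mean of 1001 in parvocellular and 508 in magnocellular arrays. ST8SIA4, an enzyme that builds polysialic acid, read 878 and 449, and FCSK, a fucose kinase, 8074 and 5162. The points of these correlations share arrays and animals.

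LMO4, the LIM-only cofactor, read 1524 to 3193 in parvocellular arrays, with a median of 2300.1, and 1125 to 2539 in magnocellular arrays, with a median of 1738 (MmuSTS.2974.1.S1_at). These ranges overlapped widely. Within an LGN parvocellular layers were higher in 4 of 4, by 0.41 ± 0.18 (SD, n = 4 LGNs) on the log2 scale or 1.33-fold. The ranges did not overlap in 3 of 4, and the share of all probe sets separated in 3 of 4 was not counted. Without the array that stood apart the difference was 0.46 ± 0.23. The exception was the ipsilateral LGN at 4 months, where magnocellular layer 1 read 1853 and parvocellular layers 4 and 6 read 1558 and 1524. Single parvocellular layers had no order beyond their spread, with centred means of 0.15 ± 0.29 in layer 3, 0.07 ± 0.25 in layer 4, 0.17 ± 0.15 in layer 5 and 0.16 ± 0.34 in layer 6.

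In parvocellular layers LMO4 differed with deprivation in opposite directions in the 2 animals. At 2 months it read 2126, 2318, 2599.6 and 2680.2 in the deprived parvocellular layers and 2759, 2965, 3146 and 3193 in the nondeprived ones. At 4 months it read 1868, 2281, 2282 and 2671 in the deprived and 1524, 1558, 1792 and 1812 in the nondeprived layers. In neither animal did the groups overlap: all deprived layers were lower at 2 months, by 0.31 on the log2 scale, and higher at 4 months, by 0.44. Of all probe sets, 0.0213% (8) were separated in both animals with opposite directions, and LMO4 was the 1 member probe set among them. The difference between the durations was 0.75 (SE 0.20, 95% interval 0.34 to 1.17), with an unadjusted p of 0.00129 and an adjusted p of 0.973 from limma, so it did not pass over all probe sets, of which 0% passed and 3.89% had an unadjusted p under 0.05. Leaving out 1 array at a time gave 0.66 to 0.86. Over both animals together the limma log2 difference of LMO4 in parvocellular layers was 0.06 (SE 0.13, 95% interval -0.21 to 0.33, adjusted p = 0.919), an average of values of opposite sign. In magnocellular layers it was 0.08 (SE 0.27, 95% interval -0.51 to 0.67), or -0.01 without the array that stood apart. By contralateral and ipsilateral LGN it was 0.15 and 0.35 at 2 months and 0.32 and -0.49 at 4 months.

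PCDH20, SCN3B and MYLIP were the genes most like LMO4, with correlations of 0.78, 0.76 and 0.75 over 24 arrays. PCDH20, a protocadherin, read a mean of 462 in parvocellular and 149.5 in magnocellular arrays, and SCN3B, a sodium channel subunit, 1555 and 292.

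RORA, an orphan nuclear receptor of thalamic and cerebellar neurons, was set apart by 2 arrays. In magnocellular layer 2 at 2 months probe set 26193 (MmugDNA.26193.1.S1_at) read 5482 in the ipsilateral and 10586 in the contralateral LGN. The other 6 magnocellular arrays read 417, 461, 585, 631, 765 and 1177, and the parvocellular arrays 547 to 1828. Probe set 789 (MmugDNA.789.1.S1_at) read 4449 and 11789 in the same pair of arrays and 188 to 1668 in the other 22. Both probe sets thus named the same 2 arrays, 1 deprived and 1 nondeprived, and the correlation between the probe sets was 0.93 over the 24 arrays after subtraction of the LGN means.

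These were the 2 arrays with the highest GAPDH ratios, 50.8 and 14.3, and of the pair the one with the lower ratio had the higher RORA signal. Layer 2 of the ipsilateral LGN at 4 months, with the next highest ratio, 8.91, read 765 in probe set 26193. In the ipsilateral array at 2 months the summed signals of oligodendrocyte markers (4 of 12 with a probe set) were 106144, against 53614 to 80897 in the magnocellular arrays other than the pair. In the contralateral array they were 70183. MBP (64895) and CNP (38233) made up most of the ipsilateral sum. There OLIG2 lay below its magnocellular mean (2458 against 3226) and SOX10 above it (558 against 454). Relay neuron markers (4 of 10) were at 97662 and 82440, against 49971.5 to 92589. GABAergic markers (4 of 8) were at 23092 and 14488, against 15466 to 24653, and astrocyte markers (7 of 9) at 44907 and 46246, against 33390.3 to 69580.4. None of these sums lay above the range of the other magnocellular arrays in both arrays. The parts of cell content and of RNA quality in the RORA signal were not tested.

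The comparison of layer 1 with layer 2 depended on these arrays. Over the 8 magnocellular arrays RORA had a log2 difference, layer 1 minus layer 2, of -1.70 (SE 0.54, 95% interval -2.89 to -0.52) in probe set 26193, with an unadjusted p of 0.00875, and of -1.74 (SE 0.76) in probe set 789, and the adjusted p from limma was 0.9998 for both. Of all probe sets 0% passed, and 3.04% (1142) had an unadjusted p under 0.05, as did 3 of the 12 member probe sets, those of RORA and 14618 of TCF7L2. With any 1 of the 8 arrays left out, its nucleus adds nothing and the fit has 1 residual degree of freedom. The differences in such fits ran from -2.46 to -0.95 in probe set 26193 and from -3.05 to -0.43 in probe set 789. Without either array of the contralateral LGN at 4 months they were -2.46 and -2.73. Without the array that stood apart they were -0.97 and -0.43. With the GAPDH ratio as a covariate they were -0.02 and 1.04.

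**Figure D2:**
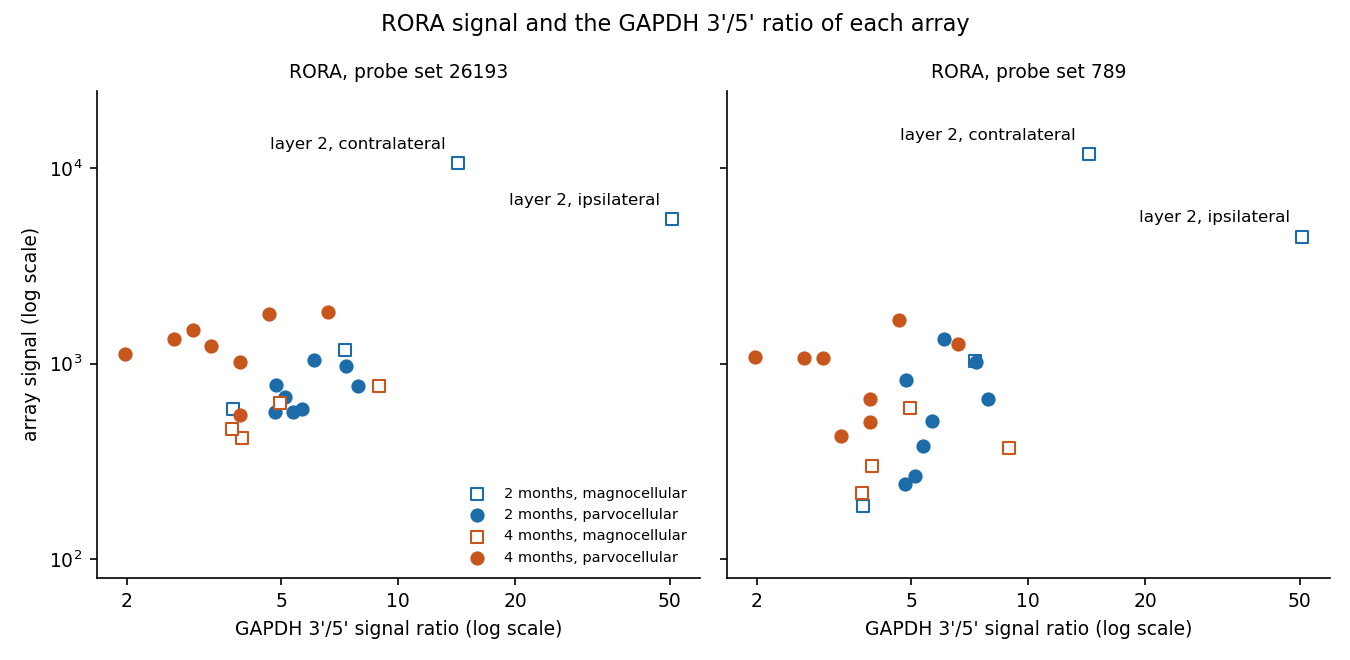
Array signal of the RORA probe sets (log scale, arbitrary units) against the GAPDH 3'/5' signal ratio (log scale) of the same array, with 1 point per array, squares for magnocellular and circles for parvocellular layers, blue for 2 months and orange for 4 months. The arrays of layer 2 at 2 months lie apart on both axes, with ratios of 14.3 and 50.8, and the other 22 arrays lie at ratios of 1.97 to 8.91 and signals of at most 1828.

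The layer classes of RORA went opposite ways in the 2 animals. Parvocellular minus magnocellular log2 differences in probe set 26193 were -1.24 and -2.35 in the ipsilateral and contralateral LGN at 2 months, and 1.04 and 1.26 at 4 months. The mean over the 4 LGNs, -0.32 ± 1.76 (SD), therefore describes neither animal. Without both layer 2 arrays at 2 months it was 0.48 ± 0.91 and positive in 3 of 4 LGNs. At 4 months, where neither array is in question, the parvocellular layers read, in probe set 26193, 547 to 1828 and the magnocellular layers 417 to 765, and within each nucleus all parvocellular values of probe set 26193 lay above both magnocellular ones. Over both nuclei at 4 months this was so in 1.41% of all probe sets. Probe set 789 was separated in this way in the contralateral LGN, while in the ipsilateral LGN its parvocellular signals, 425 to 1668, overlapped with the magnocellular 369.7 and 591.

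Within parvocellular layers RORA had no difference past the threshold. Its log2 difference between deprived and nondeprived layers was -0.17 (SE 0.20, 95% interval -0.58 to 0.25, adjusted p = 0.839) in probe set 26193 and -0.43 (SE 0.32, 95% interval -1.09 to 0.23, adjusted p = 0.684) in probe set 789, from limma. In magnocellular layers the value of probe set 26193 was 0.05 (SE 0.75) with all arrays. It was -1.01 (SE 0.56, adjusted p = 0.834 from limma) without the array that stood apart, whose nucleus then adds nothing. The nondeprived layer 2 array at 2 months stays in that fit. By LGN this left -3.17 (contralateral) at 2 months, and -0.14 (contralateral) and 0.28 (ipsilateral) at 4 months. The genes most like RORA were LOC703455, CHD9, a chromatin remodeler, and HIPK2, a nuclear kinase, with correlations of 0.93, 0.92 and 0.92. Without both layer 2 arrays at 2 months these fell to 0.79, 0.86 and 0.82. CHD9 read 1157 and 1148 in these arrays and at most 520.4 elsewhere.

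TCF7L2, the DNA-binding partner of beta-catenin, gave signals of 100 or more on every array in all 6 of its probe sets, but the probe sets did not rise and fall together. The one with the highest mean log2 signal, 39471 (MmugDNA.39471.1.S1_s_at), read 25950.1 to 39352 in parvocellular arrays, with a median of 30118, and 29516 to 35077 in magnocellular arrays, with a median of 29984. The classes did not differ in it, with a mean within-LGN difference of 0.00 ± 0.16 (SD, n = 4 LGNs). Over the 15 pairs of TCF7L2 probe sets the correlation across arrays, after subtraction of the LGN means, ran from -0.37 to 0.68 with a median of 0.02, and 7 of the 15 were negative. What each probe set covers of the gene is not given in the sources used here.

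**Figure D3:**
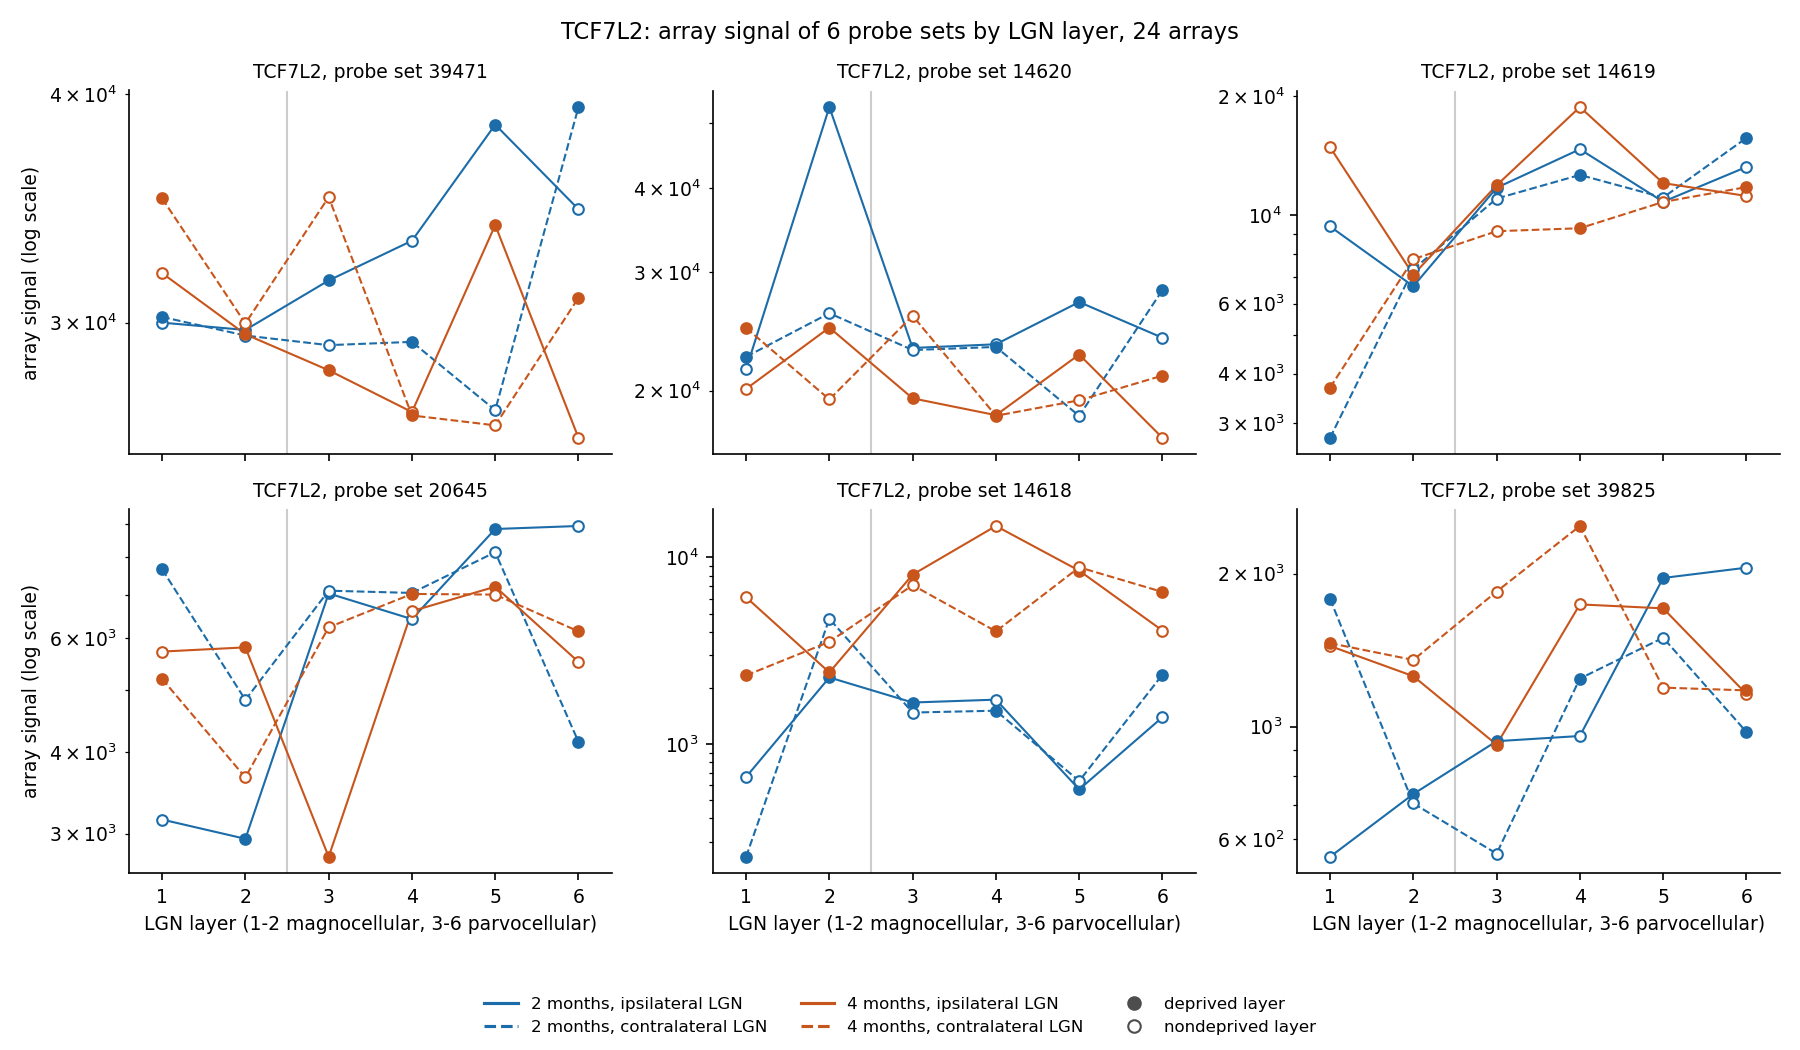
Array signal (log scale, arbitrary units; each panel has its own axis range) of the 6 TCF7L2 probe sets against LGN layer, drawn as in the plot of BHLHE22, LMO4 and RORA. Probe set 39471 stays between 25950.1 and 39352, probe set 14619 dips in contralateral layer 1 of both animals, to 2755 and 3686, and probe set 14618 lies higher at 4 months in the parvocellular layers.

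Probe set 14619 (MmugDNA.14619.1.S1_at) of TCF7L2 had the largest class difference of these 6 when all arrays were used. It read 9129 to 18750.5 in parvocellular arrays, with a median of 11765, and 2755 to 14854 in magnocellular arrays, with a median of 7205. The mean within-LGN difference was 0.86 ± 0.47 (SD, n = 4 LGNs), positive in 4 of 4. As for LMO4, the ranges did not overlap in 3 of 4, a separation whose share over all probe sets was not counted. Without the array that stood apart it was 0.80 ± 0.52 and that of probe set 14618 was larger, at 0.85 ± 0.37, and without both layer 2 arrays at 2 months they were 0.97 ± 0.84 and 1.38 ± 0.71. With all arrays the other probe sets had 0.63 ± 0.56 (14618), 0.47 ± 0.66 (20645), 0.28 ± 0.57 (39825) and -0.21 ± 0.19 (14620), and 1 of them, 14620, was lower in parvocellular layers in 4 of 4 LGNs on average. For that probe set the magnocellular array that stood apart read 52729.9, while the others read 19408 to 26057, and without it the difference was -0.04 ± 0.16.

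In magnocellular layers probe set 14619 was lower in the deprived layers of all 4 LGNs. Deprived layers read 6634 and 2755 at 2 months and 7091 and 3686 at 4 months, in the ipsilateral and contralateral LGN, and nondeprived layers 9384 and 7319.8, then 14854 and 7761. The groups overlapped by no array, although the nondeprived values of layer 2 lay only just above the deprived values of layer 2. How many of all probe sets were separated in this way was not counted. The log2 difference was -1.01 (SE 0.25, 95% interval -1.57 to -0.46), with an unadjusted p of 0.0022 and an adjusted p of 0.836 from limma, so it did not pass. In this comparison 0% of all probe sets passed and 5.68% (2138) had an unadjusted p under 0.05, as did 2 of the 12 member probe sets. It was -1.18 without the array that stood apart, -1.30 after median scaling and -0.91 after quantile normalization. In parvocellular layers the same probe set had -0.04 (SE 0.12, 95% interval -0.29 to 0.21). The other TCF7L2 probe sets did not share the magnocellular direction of 14619, except 14618 at -1.10 (SE 0.71). Probe sets 14620 (0.43), 20645 (0.27) and 39825 (0.41) were each higher in deprived magnocellular layers in 3 of 4 LGNs, and 39471 had 0.03.

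The difference between the layer classes in the deprivation effect of probe set 14619 was 0.97 (SE 0.27, 95% interval 0.42 to 1.52), with an unadjusted p of 0.00124 and an adjusted p of 0.561 from limma. Of all probe sets 0% passed this test and 6.75% (2540) had an unadjusted p under 0.05. BHLHE22 was the other member probe set with an unadjusted p under 0.05, with -1.12 (SE 0.44, 95% interval -2.03 to -0.22, adjusted p = 0.71). Its value was -1.94 at 2 months alone, where 3 of the 4 magnocellular signals were under 100, and -0.31 at 4 months alone. Without the array that stood apart BHLHE22 had -0.80, with an unadjusted p of 0.0738 from limma over the remaining arrays, and probe set 14619 had 1.13 (adjusted p = 0.452). Probe sets 14618 (1.78) and 20645 (-0.80) of TCF7L2 then had an unadjusted p of 0.00969 and 0.0252 from limma, and adjusted p of 0.597 and 0.67.

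The animals also differed in probe set 14618 (MmugDNA.14618.1.S1_at) of TCF7L2. Its parvocellular signals were 571 to 2353 at 2 months and 4018 to 14749 at 4 months, with no overlap, a log2 difference of 2.47 or 5.54-fold. The other 5 probe sets of TCF7L2 overlapped between the animals, with differences of -0.27 to 0.31. Magnocellular signals of probe set 14618 ran from 249 to 4694 at 2 months and from 2333 to 6119.7 at 4 months and overlapped. The genes most like TCF7L2 in probe set 39471 were TCEAL4, LOC701204 and H2AZ1, a histone variant, with correlations of 0.79, 0.78 and 0.76.

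FOXP2, a forkhead repressor, lay near the lower limit of the arrays. Its 2 tested probe sets reached 100 on 8 (33925, MmugDNA.33925.1.S1_s_at) and 4 (41356, MmugDNA.41356.1.S1_at) of the 24 arrays, and their means over all arrays were 86.8 and 57.2. At 2 months the inner parvocellular layers read 170.1, 163, 139 and 95.6 in probe set 33925 and the outer layers 63.9, 15.6, 14.6 and 22.5. These did not overlap, while at 4 months the inner layers, at 71.7 to 97.7, overlapped with the outer ones, at 57.9 to 104. The share of all probe sets with such a separation at 2 months was not counted. The log2 difference of outer from inner layers over both animals was -1.28 (SE 0.41, 95% interval -2.14 to -0.43), with an unadjusted p of 0.00544 and an adjusted p of 0.521 from limma. It was -2.54 at 2 months alone, -0.03 at 4 months alone, and -0.71 with signals under 50 set to 50. Probe set 41356 had -0.54 (SE 0.55, 95% interval -1.68 to 0.61) between outer and inner layers, lower in 2 of 4 LGNs. At 2 months it had -2.14 in the contralateral and 0.14 in the ipsilateral LGN. In magnocellular layers probe set 33925 had a log2 difference with deprivation of 1.79 (SE 0.65, 95% interval 0.34 to 3.23). The unadjusted p was 0.0199 and the adjusted p 0.836 from limma. This difference was 1.08 without the array that stood apart and 1.00 with signals under 50 set to 50. The other tested probe set of FOXP2, 41356, had -0.52 (SE 0.87, 95% interval -2.46 to 1.41) there, lower in 3 of 4 LGNs.

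Between deprived and nondeprived parvocellular layers no tested member differed past the threshold. Of 12 probe sets 0 passed the limma test, against 0.97% (365) of all probe sets, and 0 had an unadjusted p under 0.05, against 11.4% (4302). Their log2 differences ran from -0.43 to 0.12 with a median of 0.00 (-0.01 over all probe sets), 6 above and 6 below 0. BHLHE22 had the smallest p, with signals of 301 to 2102 (median 1069.9) in deprived and 342 to 2933 (median 1249) in nondeprived layers. These ranges overlapped, and its log2 difference was -0.26 (SE 0.17, 95% interval -0.60 to 0.09, adjusted p = 0.618). The narrowest intervals were those of TCF7L2, from -0.08 to 0.32 in probe set 39471 and from -0.09 to 0.32 in probe set 14620. The widest was that of FOXP2, from -1.11 to 1.18 in probe set 41356.

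**Figure D4:**
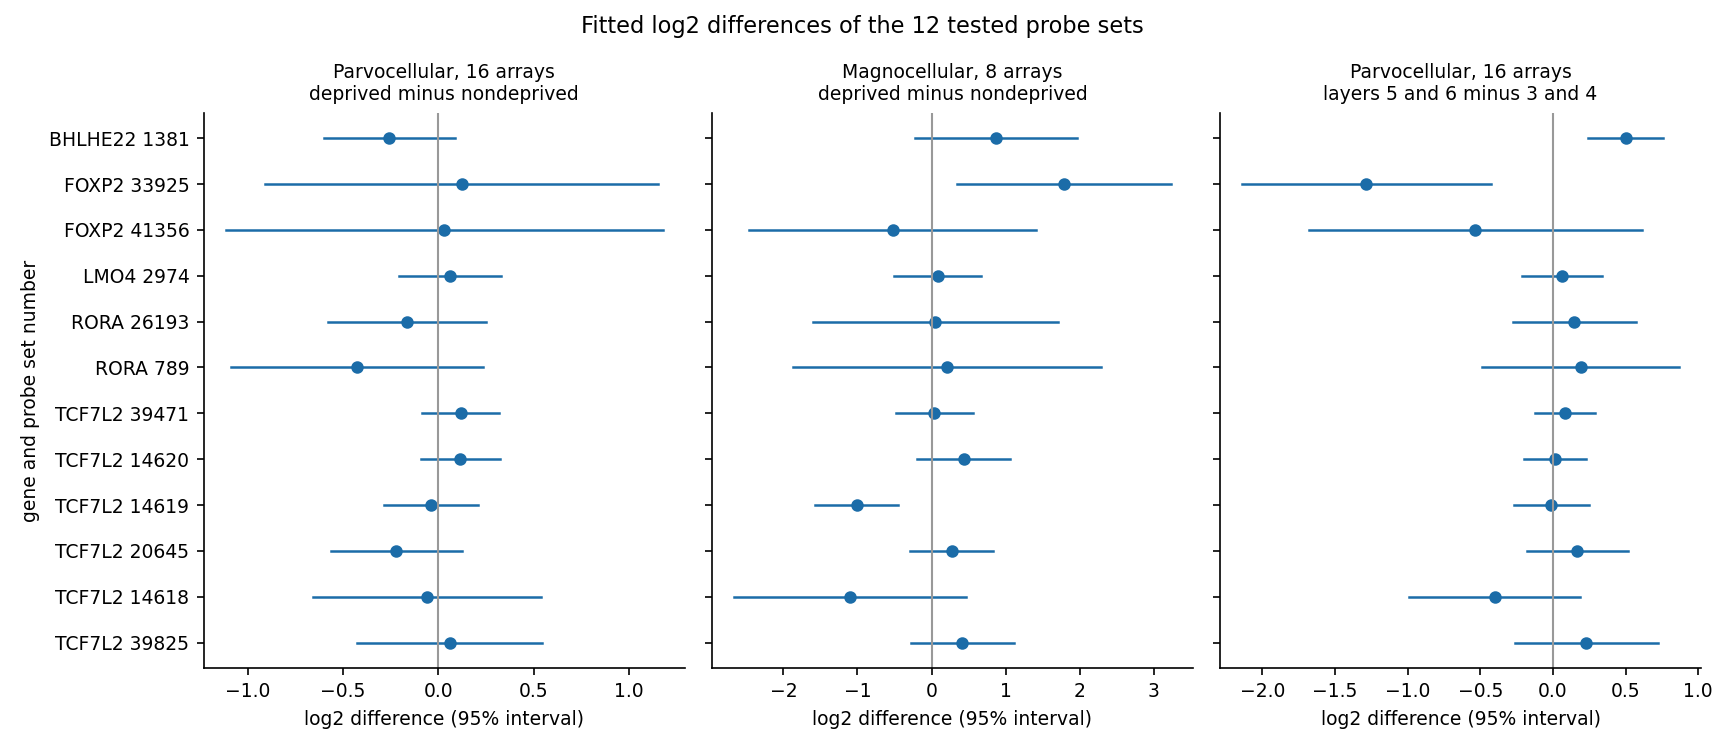
Log2 differences (points) with 95% intervals (lines) from limma for the 12 tested probe sets, for deprived minus nondeprived parvocellular layers (16 arrays), deprived minus nondeprived magnocellular layers (8 arrays) and outer minus inner parvocellular layers (16 arrays), on axes of different range. The parvocellular deprivation values run from -0.43 to 0.12 with every interval across 0, and no value in any panel passed after adjustment over 37623 probe sets.

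In magnocellular layers the log2 differences of the 12 probe sets with deprivation ran from -1.10 to 1.79, with a median of 0.15. Without the array that stood apart both ends moved. FOXP2 in probe set 33925 then had 1.08, and probe set 14618 of TCF7L2, at -1.10 with all arrays, had -2.06 (SE 0.56). The limma unadjusted p of the latter was 0.00395 and its adjusted p 0.822. The ipsilateral LGN at 2 months adds nothing to this fit, so deprivation is not balanced between layers 1 and 2. By LGN, probe set 14618 had -4.24 (contralateral, 2 months), -0.60 (contralateral, 4 months) and -1.34 (ipsilateral, 4 months). The first had a signal of 249 in its deprived layer 1, against 2275 to 2421 in the other deprived magnocellular arrays. With all arrays the magnocellular median over all probe sets was 0.13, and -0.15 after median scaling, so that values of this size followed the scaling. BHLHE22 had 0.87 (SE 0.49), or 0.66 without the array that stood apart, and RORA in probe set 26193 had 0.05 (SE 0.75). Both had a larger SE than in parvocellular layers, which had more arrays, and the LGNs also differed widely. By LGN, BHLHE22 ran from -0.72 to 1.92 and RORA in probe set 26193 from -3.17 to 3.23.

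The relatives and partners of the members did not pass the tests either. Of 18 tested partners of TCF and LEF factors and Wnt feedback genes (25 listed), 0 passed in deprived parvocellular layers by limma and 4 had an unadjusted p under 0.05, with a median of 0.10. The smallest p were those of the corepressor TLE1 at 0.31 (SE 0.11, adjusted p = 0.249), the R-spondin receptor LGR5 at 0.49 (SE 0.21, adjusted p = 0.366) and the Wnt antagonist DKK1 at 0.40 (SE 0.18, adjusted p = 0.388). Of 12 tested bHLH relatives (20 listed) 0 passed and 4 had an unadjusted p under 0.05. ID4, which binds bHLH factors and keeps them from DNA, had 0.51 (SE 0.13, adjusted p = 0.0723), and the E proteins TCF3 and TCF12, partners of bHLH factors, 0.39 (SE 0.12, adjusted p = 0.156) and 0.43 (SE 0.14, adjusted p = 0.191).

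Of 21 tested other thalamic and diencephalic transcription factors (35 listed), 0 passed by limma and 11 had an unadjusted p under 0.05 in parvocellular layers, where 11.4% of all probe sets did. Their median log2 difference was 0.26 (0.23 after quantile normalization and 0.29 after median scaling), against -0.01 over all probe sets. SOX2, a factor of glia and of some thalamic neurons, had 0.38 (SE 0.10, adjusted p = 0.0627), ETV1, an ETS factor, -0.54 (SE 0.14, adjusted p = 0.0785), and MEIS1, a homeobox factor, 0.52 (SE 0.18, adjusted p = 0.206). In the same comparison the astrocyte markers, 7 of 9 tested, had a median of 0.23, and 1 of them, GFAP, the astrocyte filament, rose by 1.07 (SE 0.21, adjusted p = 0.0184 from limma). The 4 GABAergic markers tested had a median of 0.41 and the 9 microglial markers one of 0.30, with none of either below 0 and none past the threshold. Oligodendrocyte markers had a median of 0.15, their precursors 0.14, vascular and meningeal cells 0.06 and relay neurons -0.07. The part of these cells in the values of the transcription factors was not tested.

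The remaining lists were LIM-domain factors and cofactors (7 of 16 tested, 2 with an unadjusted p under 0.05, median 0.09), FOXP and ROR relatives (8 of 12, 1 such gene, median -0.05) and ZIC and GBX relatives (5 of 8, 1 such gene, median -0.07), with 0 past the threshold in each. LMO3, a LIM-only relative of LMO4, had the smallest p of the first, with 0.46 (SE 0.14, adjusted p = 0.152). In none of the 6 comparisons did a gene of these 6 related lists pass. Between the layer classes, as a description, 2 of their 71 tested genes had parvocellular arrays wholly above magnocellular ones in all 4 LGNs, as BHLHE22 did. TSHZ2, a zinc finger factor, read a mean of 8134 in parvocellular and 5069 in magnocellular arrays, a within-LGN difference of 0.73 ± 0.43 (SD, n = 4 LGNs), and ZIC2, a relative of ZIC1, read 10278 and 7108, a difference of 0.53 ± 0.04.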

How the data were processed

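Signals of 24 arrays, 1 for each layer of 4 LGNs, were used. The authors laser-captured each layer without the koniocellular zones, amplified its RNA by 2 rounds of T7 transcription, and made the deposited intensity values with GCOS (named in the submitters' processing notes), which scales arrays to a common trimmed mean. Amplification from the 3' end shortens RNA, so that probe sets far from it lose signal. The array design and number limit the precision, and sequencing depth does not apply.

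From these intensities log2 values were computed, with signals under 1 set to 1. Controls (99 probe sets) were left out, and probe sets at 100 or more on at least 1 array were kept (37623 of 52766). Probe sets were named by GEO's platform annotation, with 24956 having 1 symbol, 361 several and 27449 none. Differences were fitted with limma 3.58.1 in R 4.3.3 (lmFit and eBayes with a trend), with the LGN as a block and Benjamini-Hochberg adjustment over all kept probe sets at 0.05. The block follows the comparison within a nucleus. Comparisons within layers 1 and 2 and of outer with inner layers also had deprivation as a term.

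Groups came from the animal, side and layer in the labels. The layers of 2 animals are not independent animals, so that p-values measure the spread between layers. Layers of the same number in the LGNs of an animal had correlations of -0.195 to 0.0837 in parvocellular deviations and, in magnocellular ones, of 0.305 at 2 months and 0.0507 at 4 months, and layer number was not taken as a pairing. The members and gene lists were chosen with earlier results of these data known. Genes were named where they were members, the 3 most correlated with the probe set of highest mean log2 signal of a member whose mean was at least 100, or, in a related or marker list, among the up to 3 smallest p-values of a comparison or past the threshold. TSHZ2 and ZIC2 were named for their layer classes after their values were seen. Alternatives were quantile normalization, median scaling, other floors and filters, an added offset, eBayes without a trend, a GAPDH covariate, deprived or nondeprived layers only, other blocks, each animal alone and each array left out. The levels under other scalings, signals under 100 set to 100 and the layer classes without both layer 2 arrays at 2 months were added after seeing the data.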

Additional observations from a re-analysis of the deposited data

Results flagged for a closer look

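In 4 of 48 groups of 4 or 8 arrays, 1 array lay far from the rest of its group by Dixon's criterion, which chance alone meets in about 5% of groups. All 4 were magnocellular. In nondeprived layers RORA (MmugDNA.26193.1.S1_at) read 10586 in contralateral layer 2 at 2 months, and 461 to 631 in the others. In deprived layers TCF7L2 read 52729.9 in ipsilateral layer 2 at 2 months in probe set MmugDNA.14620.1.S1_at, where the others read 22454 to 24808, and this is the array with the GAPDH 3'/5' ratio of 50.8. In MmugDNA.14618.1.S1_at TCF7L2 read 249 in contralateral layer 1 at 2 months, and 2275 to 2421 in the others. In MmugDNA.39471.1.S1_s_at it read 35077 in contralateral layer 1 at 4 months, and 29564 to 30216 in the others. Whether RNA quality has a part in these values was not tested.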

How the results depend on the processing

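Counts of member probe sets past the adjusted threshold stayed at 0 under every alternative run in 5 of the 6 comparisons. The exception was layer 1 against layer 2, where leaving out 1 array at a time gave 0 to 3. The 3 were both RORA probe sets and 14618 of TCF7L2, without either array of the contralateral LGN at 4 months. Every fit of this comparison with 1 array left out had 1 residual degree of freedom. The share of all probe sets past the threshold in these fits is not given here, so the 3 are not read as a result about the members. The 1 probe set whose layer classes did not overlap in any LGN became 3 at 2 months alone (BHLHE22, LMO4 and TCF7L2 14619; 1.47% of all probe sets), 3 at 4 months alone (BHLHE22, FOXP2 41356 and RORA 26193; 1.41%) and 3 in deprived layers only (BHLHE22, LMO4 and TCF7L2 14619; 2.15%), and leaving out 1 array at a time gave 1 to 3, with 3 without ipsilateral layer 1 at 4 months (0.279%). Fewer nuclei or layers then have to be separated. With the animal in place of the LGN as the block, 0 member probe sets passed in each of the 6 comparisons, and with layer number as the block within each animal 0 passed for parvocellular deprivation, where it was run. Of the single probe set values, 802 shifted by less than the SE of the main fit, and 61 of these changed sign. Another 64 shifted by more, and 13 of these changed sign. For the layer classes, which had no test, the SD between LGNs stood in for the SE. None of the values that changed sign and had a test was past the threshold. The remaining 6 values went past the threshold in the alternative, and 0 of them changed sign. Median scaling moved the median magnocellular difference with deprivation over all probe sets from 0.13 to -0.15, and that of the members from 0.15 to -0.14. Each animal alone was not run for the duration difference or for layer 1 against layer 2. Signals near or under 100, as for FOXP2 and RORB, limit what can be said of those genes.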
